A study of Mus musculus with 12 samples.

Results

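The genes described here are *Slc25a12*, *Ypel4*, *Eef1a1*, and *Ppp1r10*, autosomal genes that an earlier study of embryonic stem cells placed in contact with the X-chromosomal *Firre* locus. They were chosen by name from that report, not by any value measured here, though with earlier results of these data known. All 4 were found by symbol among the 47643 genes of the expression table, and 3 of the 4 had a mean of at least 1 TPM (transcript abundance, reads adjusted for gene length and library total) over the 12 libraries.

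RNA was measured by poly(A)+ RNA-seq in common lymphoid progenitors (CLPs), sorted by FACS from the bone marrow of adult male mice, with 4 libraries in each of 3 groups. WT mice carry an intact *Firre* locus. ∆*Firre* mice (labelled KO) lack the whole gene body and promoter, removed from the floxed allele by a CMV-Cre deleter, so that the DNA and the RNA are both lost in all tissues. *Firre* rescue mice carry the same deletion together with a tet-responsive *Firre* cDNA transgene and a constitutively expressed rtTA, and were fed doxycycline (dox). The rescue libraries therefore differ from the others in deletion or transgene and in diet, and the JR numbers in their titles form a range of their own, so that the transgene, the diet, and whatever these numbers mark cannot be told apart. Replicates are named here by the number that follows the group in each title.

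*Firre* produces a nuclear lncRNA that escapes X-inactivation and that binds hnRNPU, a nuclear matrix protein. Chromosome contacts between different chromosomes (*trans*-contacts) bring distant genes into one nuclear neighborhood, and one question such a contact raises is whether expression of the contacted gene depends on the locus or on its RNA. The 4 genes have unrelated products. *Slc25a12* encodes the mitochondrial aspartate-glutamate carrier of the malate-aspartate shuttle, *Ypel4* a member of the Yippee-like family of zinc-binding proteins, *Eef1a1* the elongation factor that brings aminoacyl-tRNA to the ribosome, and *Ppp1r10* the nuclear protein PNUTS, which targets protein phosphatase 1.

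In GRCm38, the build the reads were mapped to, *Slc25a12* (ENSMUSG00000027010.16) lies at chr2:71274270-71367781 on the minus strand and *Ypel4* (ENSMUSG00000034059.13) at chr2:84734011-84738655 on the plus strand. *Eef1a1* (ENSMUSG00000037742.14) lies at chr9:78478453-78481724 on the minus strand and *Ppp1r10* (ENSMUSG00000039220.16) at chr17:35916512-35932283 on the plus strand. *Firre* (ENSMUSG00000085396.7) itself lies at chrX:50563120-50635321. The promoter windows of the 4 genes are shown because they hold an annotated transcript start of each contacted gene, and because they differ in base composition. Each runs 5′ to 3′ on the gene's strand from 250 bases before to 50 bases after the annotated start (RefSeq, GRCm38), with capitals marking matches on either strand to TATAA, to the GC box letters GGGCGG, or to AGGGGGC, a core of the CTCF motif. None of these motifs overlapped another in the 4 windows. *Ppp1r10* has 2 windows in the RefSeq table, both wholly inside the gene's span given above and downstream of its first base, and the first is shown. The windows are chr2:71367706-71368005, chr2:84733954-84734253, chr9:78481675-78481974, and chr17:35916946-35917245, in the order given.
*Slc25a12*: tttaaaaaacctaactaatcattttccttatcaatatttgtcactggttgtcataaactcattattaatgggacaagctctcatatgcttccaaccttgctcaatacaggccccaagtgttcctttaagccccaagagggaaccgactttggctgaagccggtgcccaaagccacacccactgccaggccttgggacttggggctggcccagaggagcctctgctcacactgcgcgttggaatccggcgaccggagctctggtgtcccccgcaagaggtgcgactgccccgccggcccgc
*Ypel4*: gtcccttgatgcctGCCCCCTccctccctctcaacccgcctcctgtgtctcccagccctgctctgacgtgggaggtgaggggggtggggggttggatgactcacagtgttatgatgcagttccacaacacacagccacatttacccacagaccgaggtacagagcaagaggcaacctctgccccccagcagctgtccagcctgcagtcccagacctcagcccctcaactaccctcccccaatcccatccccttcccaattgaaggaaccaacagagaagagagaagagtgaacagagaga
*Eef1a1*: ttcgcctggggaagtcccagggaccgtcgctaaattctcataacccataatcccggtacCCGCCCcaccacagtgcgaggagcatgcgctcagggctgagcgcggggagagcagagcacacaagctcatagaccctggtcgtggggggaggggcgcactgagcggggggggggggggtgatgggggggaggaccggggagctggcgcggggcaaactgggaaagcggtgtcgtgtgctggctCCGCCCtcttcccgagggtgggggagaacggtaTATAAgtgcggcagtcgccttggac
*Ppp1r10*: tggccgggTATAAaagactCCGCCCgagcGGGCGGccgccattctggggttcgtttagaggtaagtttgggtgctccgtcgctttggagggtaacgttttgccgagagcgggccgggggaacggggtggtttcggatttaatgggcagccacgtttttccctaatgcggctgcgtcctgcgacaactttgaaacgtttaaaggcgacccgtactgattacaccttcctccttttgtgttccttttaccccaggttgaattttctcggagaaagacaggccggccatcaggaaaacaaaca

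The 4 windows had no motif in common. The *Slc25a12* window held none of the letters searched. The *Ypel4* window held 1 match to AGGGGGC, which 10.7% of 32544 promoter windows of the same length hold. The *Eef1a1* window held 2 matches to GGGCGG (present in 35.9% of all windows) and 1 to TATAA (24.8%), the last beginning at base 26 of the annotated transcript. The *Ppp1r10* window likewise held 2 matches to GGGCGG and 1 to TATAA. Among the 4 windows shown, CpG dinucleotides were most frequent in that of *Ppp1r10*. It held 24 CpGs, with an observed to expected ratio of 1.10, higher than in 97.9% of all windows. The second *Ppp1r10* window, not shown, held 5 CpGs, with a ratio of 0.366, higher than in 48.1% of all windows. The ratio was 0.697 for *Eef1a1*, 0.553 for *Slc25a12*, and 0.120 for *Ypel4*, whose 3 CpGs put it above only 16.2% of windows. A match describes letters and not a bound site.

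The libraries differed in depth, with 10987250 to 18172286 reads recovered from the TPM values in WT, 14366324 to 17589327 in ∆*Firre*, and 25780468 to 32569917 in *Firre* rescue. *Firre* was between 25.2 and 31.6 TPM in WT, was listed at 0 in all 4 ∆*Firre* libraries, and reached 59.9, 135.5, 63.0, and 174 TPM in rescue replicates 1 to 4. The progenitor markers *Il7r*, *Flt3*, *Kit*, *Cd27*, *Rag1*, *Rag2*, *Dntt*, and *Cd93* were detected in every group, at a summed level of 6206 to 9017 TPM in WT, 7334 to 7803 TPM in ∆*Firre*, and 8289 to 9098 TPM in rescue libraries, most of it *Dntt*. Between rescue and ∆*Firre*, *Rag1* was called higher (0.73, limma adjusted p = 0.00773) and *Kit*, one of the sort markers, lower (−0.49, limma adjusted p = 0.0137). All 6 B lineage markers were called higher in rescue than in ∆*Firre* libraries, beside 8.58% of all genes tested (summed TPM 670 to 1064, against 201 to 270 in ∆*Firre* and 151 to 318 in WT), and all 4 basophil and mast cell markers were called lower, beside 19.3% of all genes (63.5 to 136, against 2669 to 3919 and 919 to 8083). Of 4 plasma cell markers 3 were called lower (*Jchain*, −6.23) and 1 higher (*Sdc1*, 0.68), the higher call being lost once exon GC content was regressed out. These 4 summed to 818 to 1534 TPM in WT, 1555 to 3333 in ∆*Firre*, and 214 to 357 in rescue libraries. *Jchain* was at a mean of 924 TPM in WT and 2313 TPM in ∆*Firre* (difference 1.29). None of the 4 was called between ∆*Firre* and WT. Of the 2 T and natural killer cell markers tested, *Ncr1* was called lower (−2.34) and *Nkg7* was not called (−0.18), beside the same 19.3% lower and 8.58% higher of all genes. Of 4 neutrophil and monocyte markers *Mpo* was called lower (−0.56), and of 3 erythroid markers 0 were called. Of 4 plasmacytoid dendritic cell markers *Bst2* (0.42) and *Irf8* (0.36) were called higher and *Tcf4* lower (−0.65), and 0 of the 4 were called with the GC correction. In such sorted bulk samples, fewer cells of a type and less RNA per cell cannot be told apart. The part of these cell markers in the comparisons given here was not tested.

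No change common to the contact genes was found on deletion of *Firre* or on its return as a transgene. Between ∆*Firre* and WT CLPs, 0 of the 3 contact genes tested were called, beside 0.0207% of all 14479 genes tested. The paper, with a count model and an FDR of 0.1, reported more genes than this test called. With so few calls, 0 of 3 says little about the contact genes. Between rescue and ∆*Firre* CLPs, 1 of the 3 was called, *Slc25a12*, beside 27.9% of all genes tested. Between rescue and WT, it was again *Slc25a12* alone, beside 24.3%. A gene was called where limma on log2(TPM + 1) gave it an adjusted p (Benjamini-Hochberg, over all genes tested) no higher than 0.1. On the log2 scale, the median difference over all genes was −0.16 between rescue and ∆*Firre* and −0.21 between rescue and WT. Between ∆*Firre* and WT it was −0.06. The quartiles were −0.47 and 0.16 for rescue against ∆*Firre* and −0.49 and 0.07 for rescue against WT. For ∆*Firre* against WT they were −0.20 and 0.08. With libraries scaled by their median ratio, the median was −0.05 for rescue against ∆*Firre* and −0.03 for rescue against WT.

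**Figure D1:**
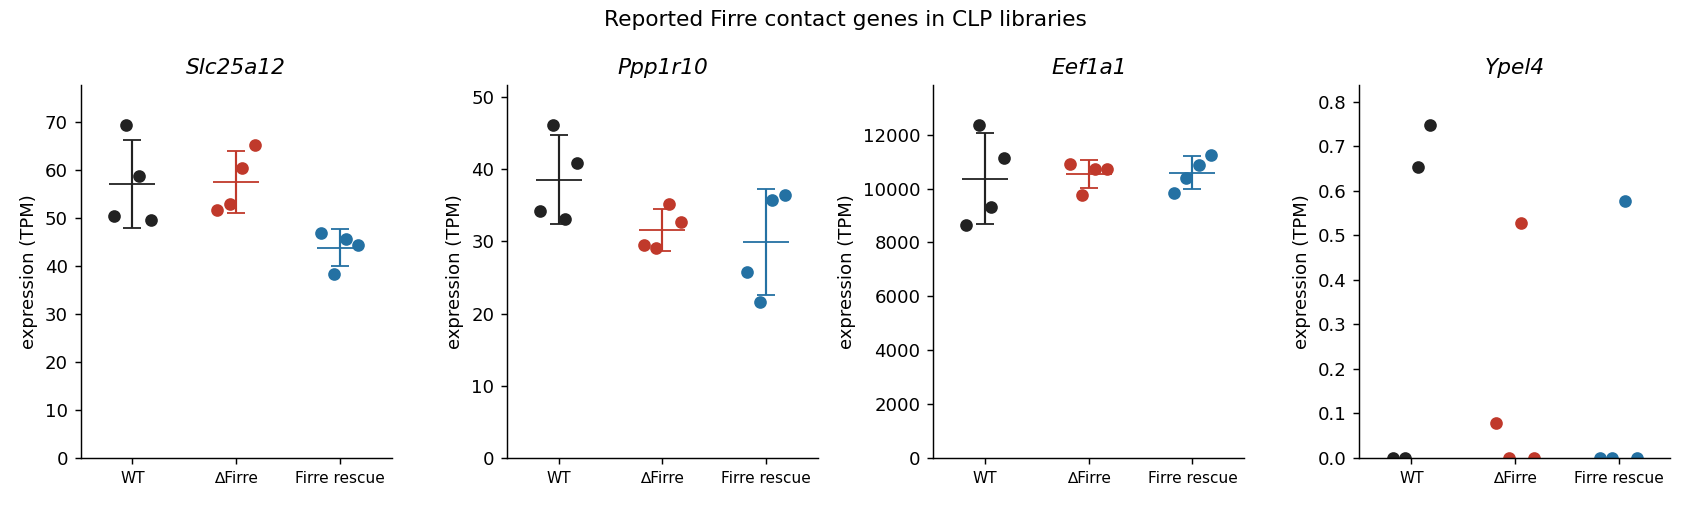
Expression (TPM, axis from 0) of the 4 contact genes, with 1 point per library, 4 libraries per group, and mean ± SD as bars except for *Ypel4*, which is listed at 0 in 7 libraries. The 4 rescue libraries lie below every WT and ∆*Firre* library for *Slc25a12*, and the groups overlap for the other genes.

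*Slc25a12* was expressed at an intermediate level, the 3570th highest mean of the genes tested. In WT it was at 50.5, 69.4, 58.7, and 49.5 TPM in replicates 6, 8, 10, and 11, a mean of 57.0 ± 9.22 (SD, n = 4). In ∆*Firre* it was at 51.7, 52.9, 60.4, and 65.3 TPM in replicates 8, 9, 11, and 12, a mean of 57.6 ± 6.44 (SD, n = 4). These 2 groups overlapped along nearly their whole range, with a WT library both highest and lowest. The difference was 0.02 on the log2(TPM + 1) scale (standard error 0.13, limma adjusted p = 1), a 1.01-fold ratio with a 95% confidence interval from 0.838 to 1.23. With 4 libraries a group, differences within these bounds are not left out, and the bounds are not a limit of detection.

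In the *Firre* rescue libraries *Slc25a12* was at 46.9, 38.3, 45.6, and 44.4 TPM, a mean of 43.8 ± 3.83 (SD, n = 4). Every rescue library lay below every library of the other groups. Of all genes tested, 15.6% were lower without overlap in the comparison with ∆*Firre* and 14.5% in that with WT. *Slc25a12* fell by 0.38 on the log2 scale against ∆*Firre*, a fold of 0.766 with a 95% interval from 0.633 to 0.927 (limma adjusted p = 0.0523, two-sided exact permutation p = 0.0286, the smallest that 4 libraries against 4 allow). Against WT it fell by 0.36, a fold of 0.777 (limma adjusted p = 0.0682, exact permutation p = 0.0286). Since the fold is on the log2(TPM + 1) scale, it slightly understates the change in TPM. Among all genes tested, 31.0% had a lower difference than *Slc25a12* between rescue and ∆*Firre* and 34.5% between rescue and WT. It thus lay within the interquartile range of all genes in both comparisons. After subtraction of the median of all genes on this TPM scale, its differences were −0.22 and −0.16. That median depends on the scaling, as given above.

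Both calls depended on scaling, that against WT more often. At an adjusted p of at most 0.1, *Slc25a12* was called against ∆*Firre* in 11 of 13 settings and against WT in 6 of 13. When libraries were scaled by their median ratio, the differences of *Slc25a12* became −0.26 (limma adjusted p = 0.125) against ∆*Firre* and −0.18 (limma adjusted p = 0.350) against WT, and neither was called. When exon GC content was regressed out of each library they were −0.24 and −0.29 (limma adjusted p = 0.305 and 0.187). *Slc25a12* was not called against ∆*Firre* without ∆*Firre* replicate 11, ∆*Firre* replicate 12, or rescue replicate 2 (limma adjusted p = 0.117, 0.137, and 0.108), nor against WT without WT replicate 8, WT replicate 10, rescue replicate 2, or rescue replicate 4 (limma adjusted p = 0.158, 0.139, 0.148, and 0.109). Within the rescue group, replicates 2 and 4, with the most *Firre* RNA (135.5 and 174 TPM), held 38.3 and 44.4 TPM of *Slc25a12*, and replicates 1 and 3, with less *Firre* (59.9 and 63.0 TPM), held 46.9 and 45.6 TPM. With 4 libraries this is a description only.

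**Figure D2:**
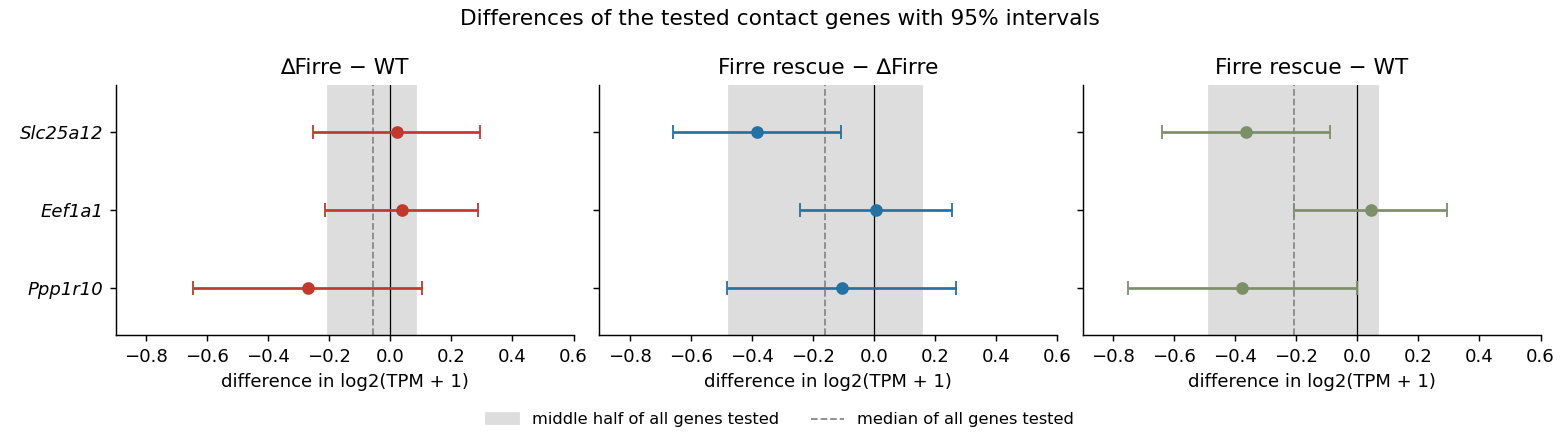
Differences in log2(TPM + 1) of the 3 contact genes tested (points, with limma 95% confidence intervals) in each comparison, beside the interquartile range (gray) and the median (dashed) of all 14479 genes tested. Every point except that of *Ppp1r10* between ∆*Firre* and WT lies within the gray range, and only the intervals of *Slc25a12* in both rescue comparisons and of *Ppp1r10* between rescue and WT leave out 0.

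The other genes of the malate-aspartate shuttle did not pass the test. This shuttle carries reducing equivalents from the cytosol into mitochondria and uses the carriers *Slc25a13* (citrin, the paralog of *Slc25a12*) and *Slc25a11*, the aspartate transaminases *Got1* and *Got2*, and the malate dehydrogenases *Mdh1* and *Mdh2*. None of these 6 genes was called in any of the 3 comparisons, beside 27.9% of all genes tested between rescue and ∆*Firre* and 24.3% between rescue and WT. Their median difference was −0.08 between ∆*Firre* and WT, 0.02 between rescue and ∆*Firre*, and −0.04 between rescue and WT. The most abundant, *Mdh1*, had 269 ± 46.1 TPM in WT, against 267 ± 18.9 in ∆*Firre* and 277 ± 10.8 in rescue CLPs (SD, n = 4 each). *Slc25a13* was at 30.5 ± 9.59, 27.5 ± 1.96, and 22.8 ± 4.30 TPM, with a difference of −0.28 between rescue and ∆*Firre* (limma adjusted p = 0.337).

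*Ppp1r10* was at 34.2, 46.1, 33.0, and 40.9 TPM in WT replicates 6, 8, 10, and 11, a mean of 38.5 ± 6.12 (SD, n = 4). In ∆*Firre* replicates 8, 9, 11, and 12 it was at 29.4, 29.0, 35.2, and 32.6 TPM, a mean of 31.6 ± 2.91 (SD, n = 4). Of the ∆*Firre* libraries, 3 lay below the lowest WT library, and replicate 11 lay between WT libraries, so that the groups overlapped. The difference of −0.27 (standard error 0.17, 95% interval −0.65 to 0.10) did not pass the test (limma adjusted p = 0.964, unadjusted 0.142, exact permutation p = 0.114). WT and ∆*Firre* libraries fall into 2 ranges of JR numbers with 2 of each group. In the lower range *Ppp1r10* was at 40.9 and 46.1 TPM in WT and 29.4 and 35.2 TPM in ∆*Firre* libraries (difference −0.42). In the higher range it was at 33.0 and 34.2 TPM in WT and 29.0 and 32.6 TPM in ∆*Firre* (difference −0.12). With 2 libraries a group, no test was made within a range. For *Slc25a12* the within-range differences were −0.07 and 0.11, and for *Eef1a1* −0.12 and 0.19, of opposite sign in the 2 ranges.

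The rescue libraries were split for *Ppp1r10*, with 25.7 and 21.6 TPM in replicates 1 and 2 and 35.7 and 36.4 TPM in replicates 3 and 4, a mean of 29.9 ± 7.35 (SD, n = 4). Replicates 1 and 3 had the lower and replicates 2 and 4 the higher *Firre* level, a different pairing. As for *Slc25a12*, this only describes 4 libraries, and dependence on the amount of *Firre* was not tested. The difference from ∆*Firre* was −0.11 (95% interval −0.48 to 0.27, limma adjusted p = 0.706, exact permutation p = 0.600), and that from WT was −0.38 (limma adjusted p = 0.157, unadjusted 0.0487, exact permutation p = 0.171). *Ppp1r10* was called against WT after the correction for GC content (−0.46, limma adjusted p = 0.0613), and without rescue replicate 3 or 4 (limma adjusted p = 0.0803 and 0.0994). Its coefficient of variation in the rescue group, 24.6%, was near the median of 20.8% of 5179 genes of like level, whereas that of *Slc25a12* was 8.74% beside a median of 18.2%.

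PNUTS works in a nuclear complex with protein phosphatase 1 and with the chromatin-associated proteins *Tox4* and *Wdr82*. Of 6 genes listed for PNUTS and its partners (*Ppp1ca*, *Ppp1cb*, and *Ppp1cc*, which encode the catalytic subunits, *Tox4*, *Wdr82*, and *Ppp1r8*, another nuclear regulator of the phosphatase), none was called between ∆*Firre* and WT. In each rescue comparison 1 of the 6 was called, *Ppp1ca*, which was higher, beside 8.58% (against ∆*Firre*) and 4.82% (against WT) of all genes tested that were higher. *Ppp1cb* was also called once exon GC content was regressed out (0.42 against ∆*Firre*, limma adjusted p = 0.00866, and 0.32 against WT, 0.0303), and with the median ratio against WT (0.31, 0.0685). *Ppp1ca* was at 543, 460, 506, and 499 TPM in ∆*Firre* and at 737, 698, 721, and 855 TPM in rescue libraries. *Ppp1ca* rose by 0.58 against ∆*Firre* (limma adjusted p = 0.00105) and by 0.42 against WT (limma adjusted p = 0.00766), and it remained called against ∆*Firre* with the median ratio, with quantile normalization, and after the GC correction, where the difference was 0.36. The other 5 genes of the list had differences between −0.05 and 0.13 from ∆*Firre*.

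*Eef1a1* had the 6th highest mean TPM of all genes tested. It was at 8658, 12361, 9300 and 11147 TPM in WT replicates 6, 8, 10, and 11, at 10927, 9773, 10727, and 10714 TPM in ∆*Firre* replicates 8, 9, 11, and 12, and at 9844, 10408, 10858, and 11247 TPM in rescue replicates 1 to 4. The group means were 10367 ± 1698, 10535 ± 518, and 10589 ± 604 TPM (SD, n = 4 each), so that the spread was widest in WT and all 3 groups overlapped. The difference was 0.04 between ∆*Firre* and WT (95% interval −0.21 to 0.29, limma adjusted p = 1) and 0.01 between rescue and ∆*Firre* (−0.24 to 0.26, limma adjusted p = 0.976). It was 0.04 between rescue and WT (−0.21 to 0.29, limma adjusted p = 0.830). A fold outside 0.845 to 1.19 between rescue and ∆*Firre* lies beyond this interval. Each value rests on at least 102614 reads. *Eef1a1* has processed pseudogene copies, and how reads that match several places were counted is not given in the sources used here, so part of its reads may have been split or lost.

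**Figure D3:**
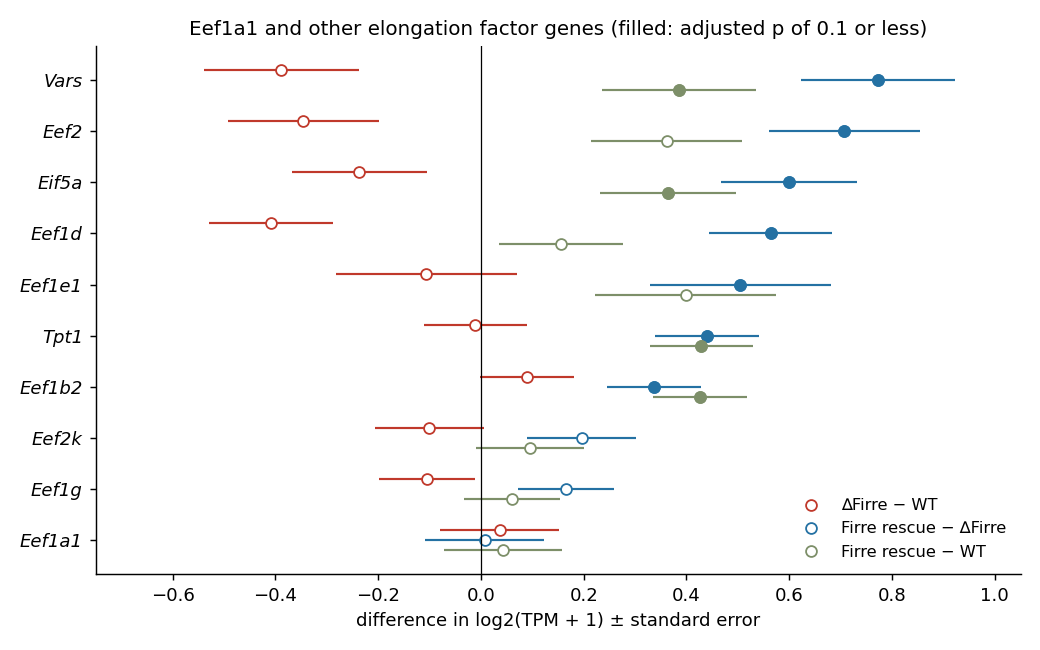
Differences in log2(TPM + 1) ± standard error of *Eef1a1* and 9 other tested genes of translation elongation in the 3 comparisons, filled where the limma adjusted p is 0.1 or less. *Eef1a1* lies near 0 in all 3, while 7 of the others are filled between rescue and ∆*Firre*.

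Genes that work beside *Eef1a1* were read next. Of 10 genes of elongation listed, 9 were tested, since *Eef1a2*, the paralog used in neurons and muscle, was between 0 and 0.17 TPM. None of the 9 was called between ∆*Firre* and WT, with a median difference of −0.11. Between rescue and ∆*Firre*, 7 of 9 rose and 0 fell, beside 8.58% of all genes tested that rose. Their median difference was 0.50, beside −0.16 over all genes tested.

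The genes that rose against ∆*Firre* were subunits of the exchange complex that recharges eEF1A (*Eef1b2*, 0.34, and *Eef1d*, 0.56, with *Vars*, the valyl-tRNA synthetase bound to it, 0.77), *Eef1e1* of the multisynthetase complex (0.50), the translocase *Eef2* (0.71), *Eif5a* (0.60), which helps ribosomes through difficult peptide bonds, and *Tpt1*, whose product binds elongation factors (0.44). *Eef1d* was at 45.4, 37.1, 46.9, and 49.5 TPM in ∆*Firre* and at 64.8, 55.7, 66.9, and 79.5 TPM in rescue libraries. Its difference from WT was 0.16 and was not called (limma adjusted p = 0.405). *Eef2*, at 1562, 1578, 1980, and 1982 TPM in ∆*Firre* and 2728, 2179, 3517, and 3285 TPM in rescue libraries, was not called against ∆*Firre* with quantile normalization (0.37, limma adjusted p = 0.177), and its difference was 0.36 once exon GC content was regressed out. With quantile normalization *Eef1b2* (0.10, limma adjusted p = 0.410) and *Tpt1* (0.12, 0.325) were not called either, and *Vars* was not called after the GC correction (0.21, limma adjusted p = 0.303). *Eef1g* and *Eef2k*, the kinase that inhibits eEF2, were not called, at 0.17 and 0.20 above ∆*Firre*. Against WT, 4 of the 9 rose (*Eef1b2*, *Vars*, *Eif5a*, and *Tpt1*), beside 4.82% of all genes tested. The number that rose between rescue and ∆*Firre* was 9 with the median ratio, 6 after correction for GC content, and 5 with quantile normalization, with none lower in these settings. Against WT it was 8, 3, and 3 in the same settings, and the genes were not the same ones, being *Eef1e1*, *Eef1d*, and *Vars* with quantile normalization and *Eef1b2*, *Eef1e1*, and *Tpt1* after the GC correction. With quantile normalization *Eef1a1* was itself called, at 0.35 against both groups, beside a list median of 0.37 against ∆*Firre* and 0.19 against WT. This scaling sets each value by the gene's rank within its library, and *Eef1a1* is among the highest ranked. The 0.35 is therefore a step between top ranks and not a measured change in TPM.

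Ribosomal protein genes, whose products make up the ribosome, were read as a sum beside *Eef1a1*. The 84 genes summed to 123839 ± 5010 TPM in WT, 122405 ± 9696 in ∆*Firre*, and 193200 ± 12879 in rescue libraries (SD, n = 4 each), a rise of 0.66 on the log2 scale between rescue and ∆*Firre* (exact permutation p = 0.0286). As a percent of that sum, *Eef1a1* was 6.82, 10.2, 7.85, and 8.63 in WT, 8.20, 8.35, 9.58, and 8.40 in ∆*Firre*, and 5.13, 5.10, 6.18, and 5.59 in rescue libraries. The highest rescue library lay below the lowest library of the other groups. The ratio thus fell by 0.65 on the log2 scale against ∆*Firre* and by 0.60 against WT (exact permutation p = 0.0286 in each comparison), and the difference was 0.06 between ∆*Firre* and WT (exact permutation p = 0.743). A ratio within libraries shows unequal change and not which term moved. With quantile normalization, *Eef1a1* itself was called higher in rescue, by 0.35 against both groups (limma adjusted p = 0.00877 and 0.0132). As said above, that value is a step between top ranks.

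**Figure D4:**
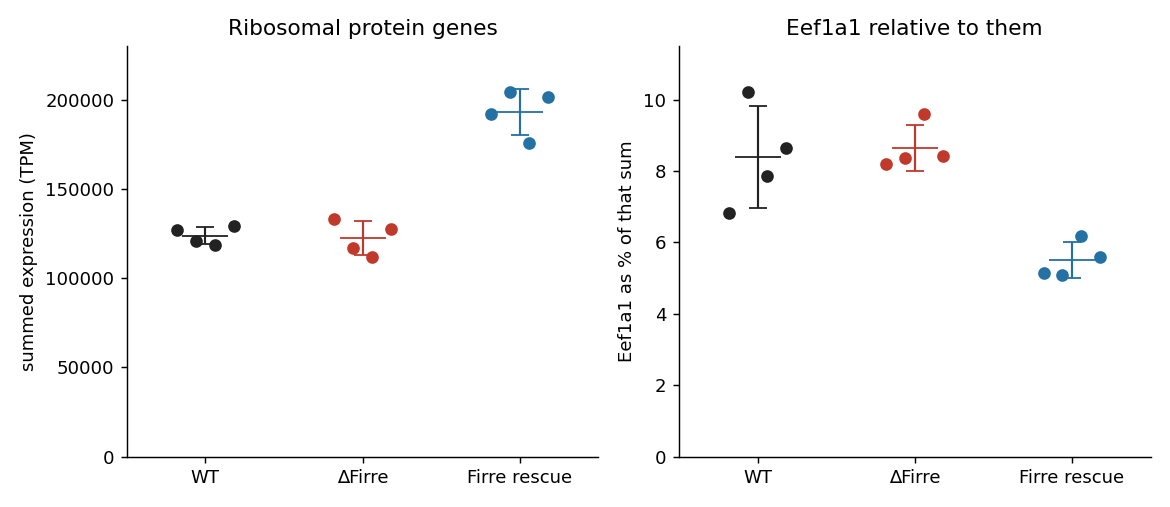
Summed TPM of 84 ribosomal protein genes (left) and *Eef1a1* TPM as a percent of that sum (right), with 1 point per library, mean ± SD, and axes from 0. Rescue libraries lie above the others on the left and below them on the right, with 5.10 to 6.18% against 6.82 to 10.2%.

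*Ypel4* was at the limit of detection. It was listed at 0 in 7 of 12 libraries, and in those a count of up to 3 reads would have been worth 0.103 to 0.326 TPM, for counting error only. In WT it was at 0, 0, 0.65, and 0.75 TPM (0, 0, 10, and 9 reads). In ∆*Firre* it was at 0.08, 0, 0.53, and 0 TPM (1, 0, 7, and 0 reads). In rescue libraries it was at 0, 0, 0.58, and 0 TPM, the single value above 0 resting on 16 reads in replicate 3. Libraries with and without reads thus occurred in each group, and no difference was detectable at this depth. The exact permutation p was 0.429 between ∆*Firre* and WT, 1 between rescue and ∆*Firre*, and 0.429 between rescue and WT, on log2(TPM + 1). Without the filter on low values, in which 25277 genes were tested, limma gave adjusted p = 0.907, 1, and 0.641.

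Other Yippee-like genes were expressed in these cells. *Ypel3* was the most abundant, with 105 ± 17.3 TPM in WT against 85.2 ± 10.2 in ∆*Firre* and 98.2 ± 13.4 in rescue CLPs (SD, n = 4 each), followed by *Ypel5* at a mean of 48.2 TPM over all libraries, *Ypel1* at 12.5, and *Ypel2* at 12.1. None of these 4 was called in any comparison as reported (27.9% and 24.3% of all genes tested were in the rescue comparisons), with differences between −0.29 and 0.20, and *Ypel3* was called lower in rescue than in WT once exon GC content was regressed out (−0.38, limma adjusted p = 0.0535). The lowest, −0.29, was that of *Ypel3* between ∆*Firre* and WT (limma adjusted p = 0.929).

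The surroundings of the contact genes were read next, since a contact may reach beyond a single gene. Within 500 kb of the 4 genes, 62 genes were tested, 7 around *Slc25a12*, 18 around *Ypel4*, 9 around *Eef1a1*, and 28 around *Ppp1r10*. None of the 62 was called between ∆*Firre* and WT, and 5 had an unadjusted limma p under 0.05, while 5.30% of all genes tested did. These 5, named because of their values, were all near *Ppp1r10*: *Tcf19* (−0.34), *Flot1* (−0.37), *Tubb5* (−0.24), and *Rpp21* (−0.46) were lower and *A930015D03Rik* (0.82) was higher in ∆*Firre*, with adjusted p = 0.929 each. The median difference of the 28 genes near *Ppp1r10* was −0.10, beside −0.06 for all genes tested.

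Between rescue and ∆*Firre*, 27 of the 62 were called (43.5%), 11 higher and 16 lower, and between rescue and WT 20 (32.3%), 6 higher and 14 lower. Of all genes tested, 8.58% were higher and 19.3% lower in the first of these comparisons, and 4.82% higher and 19.4% lower in the second. The counts of neighboring genes were not repeated with another scaling. With the median ratio, 1901 of all genes were higher and 1862 lower between rescue and ∆*Firre*, so these directions depend on the scaling. Around *Slc25a12*, 4 of 7 were lower and 0 higher than in ∆*Firre*, with a median of −0.29. Around *Eef1a1*, 2 of 9 were lower and 0 higher, around *Ypel4* 4 of 18 were lower and 4 higher, and around *Ppp1r10* 6 of 28 were lower and 7 higher. Changes in both directions thus lay in the same windows for *Ypel4* and *Ppp1r10*.

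Of the nearest tested genes on each side, *Dync1i2*, a dynein intermediate chain gene 10.97 kb from *Slc25a12*, fell by 0.28 in rescue against ∆*Firre* (limma adjusted p = 0.0914), from 59.5 to 48.7 TPM, while *Hat1*, a histone acetyltransferase gene 21.5 kb on the other side, had a difference of −0.12 (limma adjusted p = 0.400). *Mto1*, a mitochondrial tRNA modification gene 4.29 kb from *Eef1a1*, and *Slc17a5*, a sialic acid transporter gene 54.8 kb away on the other side, had differences of −0.14 and −0.49 and were not called. *Mrps18b*, a mitochondrial ribosomal protein gene that ends 0.07 kb before *Ppp1r10*, was at 43.6, 39.3, and 41.7 TPM in WT, ∆*Firre*, and rescue CLPs (means), with differences of −0.17 between ∆*Firre* and WT and 0.09 between rescue and ∆*Firre*, neither called. *Abcf1*, on the other side of *Ppp1r10*, had differences of −0.33 and 0.19 in the same comparisons and was not called. Near *Ypel4*, *Clp1*, which encodes an RNA kinase, was at 38.8, 38.6, and 41.0 TPM, while *Serping1*, the C1 inhibitor gene, was at a mean of 4.70 TPM in WT and 6.13 TPM in ∆*Firre* and was listed at 0 in all rescue libraries (limma adjusted p = 0.0336 against ∆*Firre*).

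**Figure D5:**
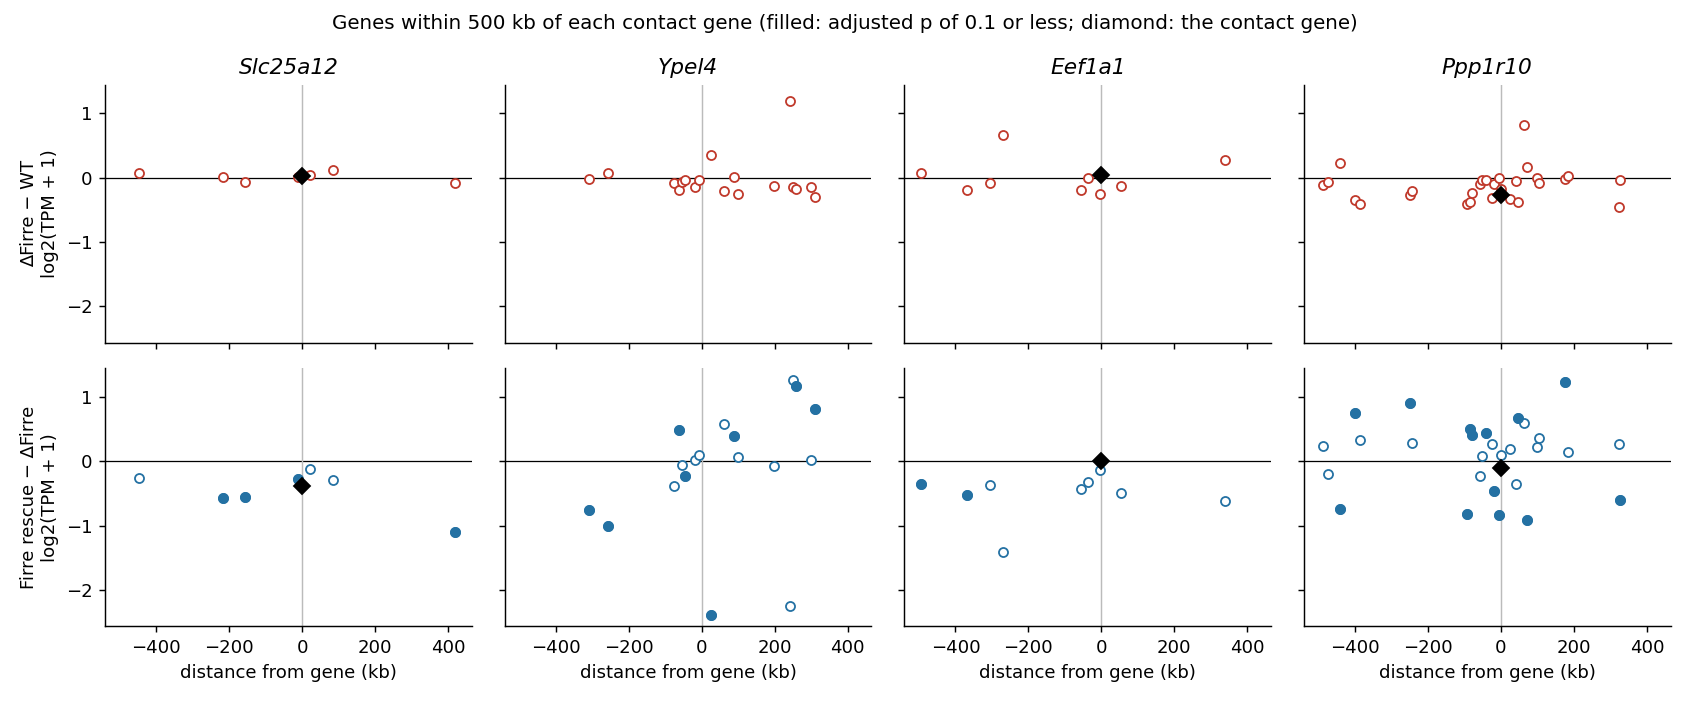
Differences in log2(TPM + 1) of the 62 tested genes within 500 kb of each contact gene against their distance from it (kb), for ∆*Firre* against WT (top) and rescue against ∆*Firre* (bottom), filled where the limma adjusted p is 0.1 or less. No point is filled in the top row, and 27 are filled in the bottom row.

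The contact genes did not share one pattern over the 12 libraries. Pearson's r of log2(TPM + 1), as a description across libraries that include the group differences, was 0.58 between *Slc25a12* and *Ppp1r10*, 0.45 between *Eef1a1* and *Ppp1r10*, and 0.20 between *Slc25a12* and *Eef1a1*. Other genes of the table lay closer to each of them. *Slc25a12* was most like *Rab3gap1* (r = 0.96), *Elovl6*, a fatty acid elongase gene (0.95), and *Stard7* (0.94) among all genes tested. *Elovl6* went from 74.0 ± 4.61 TPM in ∆*Firre* to 52.8 ± 6.39 TPM in rescue CLPs (SD, n = 4 each). *Ppp1r10* was most like *Snapc4* (0.97), *Prpf6*, a splicing factor gene (0.96), and *Zfpl1* (0.93), and *Eef1a1* was most like the shuttle gene *Mdh1* (0.91), the translation initiation factor gene *Eif3f* (0.90), and *Fcrl1* (0.84). *Atf4*, the fifth gene of the earlier report, had 235 ± 17.95 TPM in WT against 254 ± 17.2 in ∆*Firre* and 295 ± 60.8 in rescue CLPs (SD, n = 4 each) and was not called in any comparison as reported. It was called higher in rescue than in WT with the median ratio (0.50, limma adjusted p = 0.0117), quantile normalization (0.37, 0.0567), limma-voom (0.44, 0.0225), and TPM that leave out *Firre* and the ribosomal protein, immunoglobulin, and mitochondrial genes (0.41, 0.0313), and against ∆*Firre* with the median ratio (0.32, 0.0621).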

How the data were processed

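CLP RNA from 12 mice was measured as poly(A)+ RNA-seq, with 1 library per mouse. The authors trimmed the reads with cutadapt, mapped them to mm10 with TopHat2 2.1.1, counted them per gene with featureCounts, and deposited TPM, that is, reads divided by gene length and brought to one total per library. Strand, multi-mapping, and gene length settings are not given in the sources used here. Reads were recovered from the spacing of TPM values for 98.65% of the genes tested, a value being taken as whole within 0.05 of a read (slightly wider for the most abundant genes). They cover counting error only, and with 1 read on 1 kb worth 0.0897 to 0.284 TPM they limit low genes such as *Ypel4*.

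Genes whose mean TPM was 1 or more (14479) were fitted on log2(TPM + 1) with limma 3.58.1 in R 4.3.3 (lmFit, eBayes with trend), with the 3 groups in one fit. P-values are two-sided and Benjamini-Hochberg adjusted over all genes tested, and genes with an adjusted p of at most 0.1 were called. Because the deposited unit is TPM, the count model the study used was not the test reported. Single genes were also compared by exact permutation over the 70 labelings of 8 libraries (scipy 1.17.1).

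Groups came from the sample titles and genotypes. The contact genes and the gene lists were chosen with earlier results of these data known. Genes were named by rule: the contact genes and *Firre*, the 3 genes most correlated with each, called genes of its list or else the most abundant one, and the nearest tested gene on each side (positions for 12416 genes). Other names in the lists were added to describe them. Promoter windows came from RefSeq (GRCm38), where all 4 genes were matched by symbol. Exon GC content, regressed out by splines with 4 degrees of freedom, was read from an earlier Gencode release by matching gene identifiers (90.4% of genes tested). Other pseudocounts, filters, scalings, trends, blocks, limma-voom on recovered reads, and leaving out each library were also tried. The scripts were tested on simulated data.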

Additional observations from a re-analysis of the deposited data

Results flagged for a closer look

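*Ypel4* in rescue replicate 3 was at 0.659 on the log2(TPM + 1) scale (0.58 TPM, 16 reads), while the other 3 rescue libraries were listed at 0. Since those 3 libraries have no spread, any value above 0 would have stood apart from them.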

How the results depend on the processing

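Differences are on the log2 scale. JR numbers of rescue titles lie apart from the rest, *Ypel4* lies at the limit of depth, and the call of *Slc25a12* lies close to the threshold, so that scaling and single libraries decide it. Where a call changed below, the cause was not tested. No value of *Ypel4* exists under settings that keep the filter on low values and read from the fit.

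With a pseudocount of 0.1, *Ypel4* was −0.63 (∆*Firre* against WT) and −0.81 (rescue against WT). Without the filter, 6 genes were called between ∆*Firre* and WT, and *Slc25a12* between rescue and WT (−0.36) was not called (limma adjusted p = 0.1005). With the median ratio, *Slc25a12* was −0.26 and −0.18 against ∆*Firre* and WT, not called, and *Ppp1r10* was 0.012 against ∆*Firre*. With this scaling 1901 genes were higher and 1862 lower between rescue and ∆*Firre* (1242 and 2801 as reported), and 1306 and 1244 between rescue and WT (698 and 2814). With quantile normalization, *Eef1a1* was called at 0.35 in both rescue comparisons, a step between top ranks. In that setting *Ppp1r10* was 0.00015 against ∆*Firre*, and *Slc25a12* was −0.21 against WT, not called. With *Firre* and the genes for ribosomal proteins, immunoglobulins, and mitochondrial transcripts left out of TPM, 1 gene was called between ∆*Firre* and WT, and *Slc25a12* was −0.27 against WT, not called. With only the 2 groups compared, 1 gene was called between ∆*Firre* and WT and 2263 between rescue and WT, and *Slc25a12* (−0.36) was not called in the latter. At an adjusted p of 0.05, 2682 genes were called between rescue and ∆*Firre*, and *Slc25a12* (−0.38 and −0.36) in neither rescue comparison. With limma-voom, 0 genes were called between ∆*Firre* and WT (360 at an unadjusted p under 0.05), and *Slc25a12* was −0.24 against WT, not called. With GC content regressed out, *Slc25a12* and *Eef1a1* were −0.048 and −0.035 between ∆*Firre* and WT, 2001 genes were called between rescue and ∆*Firre*, *Slc25a12* was −0.24 and −0.29 against ∆*Firre* and WT, not called, and *Ppp1r10* was −0.46 against WT, called.

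WT and ∆*Firre* share replicate numbers 8 and 11, and the deviations of same-numbered libraries correlated at −0.03 and −0.04. So few pairs cannot decide whether the numbers mark a pairing. The libraries with these numbers are also those of the lower range of JR numbers. With the replicate block, 3 genes were called between ∆*Firre* and WT, with *Slc25a12* at 0.02, *Eef1a1* at 0.04, and *Ppp1r10* at −0.27, and with GC content and the replicate block together 1, with *Slc25a12* at −0.048 and *Eef1a1* at −0.035. The rescue libraries share no number with the others.

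Leaving out 1 library at a time gave 1 to 5 called genes between ∆*Firre* and WT, 2820 to 4460 between rescue and ∆*Firre*, and 2670 to 4349 between rescue and WT. *Slc25a12* ranged from −0.043 to 0.12 between ∆*Firre* and WT, from −0.43 to −0.32 against ∆*Firre* (called in 9 of 12), and from −0.43 to −0.27 against WT (called in 8 of 12). *Eef1a1* ranged from −0.045 to 0.13, from −0.029 to 0.041, and from −0.038 to 0.13 in the same comparisons. *Ppp1r10* ranged from −0.21 to 0.033 against ∆*Firre* and from −0.48 to −0.24 against WT.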
